A study of Mus musculus with 35 samples.

Results

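The promoters of the genes that encode the mitochondrial respiratory chain and ATP synthase were followed in hepatocyte chromatin of mice with and without tumors. Members were the accessible regions whose assigned gene name begins with Nduf, Uqcr, Cox4 to Cox8 or Atp5, or is Sdha, Sdhb, Sdhc or Sdhd, and whose centre lies within 1000 bp of that gene's transcription start site. The rule used names and positions only, and it found 195 regions of 85 genes among 177904 regions of 20461 genes. The assay was ATAC-seq, in which a transposase cuts open chromatin and the cut ends are sequenced, on 35 libraries of hepatocyte nuclei that were pulled from liver by a tag on the nuclear envelope (the INTACT method). Each library is given its own animal in the labels, with neither age nor sex stated there.

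All mice carried the CAG-Sun1/sfGFP tag and Albumin-Cre, which switches the tag on in cells with an active albumin promoter, so control mice carried the same alleles as tumor mice. BALB/c mice received C26 cells, a colon carcinoma line that causes wasting, and were sampled before weight loss (pre-cachexia, n = 4) or with cachexia (n = 4), against mice injected with phosphate-buffered saline (PBS, n = 4). C57BL/6N mice with 8025 tumors and cachexia (n = 4) had PBS mice of their own (n = 3). Both cachexia groups were collected after body weight had dropped by more than 10%. Zeitgeber time was 9 for every library of all groups. Tumors that leave weight stable were NC26 in BALB/c mice (n = 4, with 4 PBS mice) and MC38 in C57BL/6N mice (n = 4, with 4 PBS mice). Strain and tumor line therefore go together, and the 2 cachexia models differ in both.

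The respiratory chain consists of complexes I to IV of the inner mitochondrial membrane, which pass electrons from NADH and succinate to oxygen and pump protons, and ATP synthase (complex V) uses the proton gradient to make ATP. Nearly all subunits are encoded in the nucleus, and their promoters are typically CpG-rich and active in most cell types. The transcription factors NRF1, the ETS factor GABP, YY1 and ERRα, with the coactivator PGC-1α, are known to act on them. Hepatocytes are rich in mitochondria, which supply the ATP and redox balance for gluconeogenesis, fatty acid oxidation and the urea cycle.

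Values are reads per 400 bp region, which the authors scaled to an equal total per library and which were then scaled between libraries by TMM, a trimmed mean of ratios. They are called scaled tags here. Every region has the same width, so levels of different genes do not differ through width. Other differences between regions, such as their distance from the start site, were not corrected for. In units of 1 M, libraries held 11.3 to 23.8 tags in total, apart from NC26 tumor replicate 1 with 3.47. Spearman correlations between replicates over all regions ran from 0.836 to 0.944 in 51 pairs. Of 6 hepatocyte markers, the promoters of 4 were open in every library: Alb (albumin) held 207 to 359 scaled tags, Hnf4a (a hepatocyte transcription factor) 195 to 294, Apoa1 90.5 to 179 and Cps1 72.6 to 173. Serpina1a held 0 to 145 with a median of 2.22, and Ttr had no promoter region. Macrophage, neutrophil and endothelial markers had 1 gene each with a promoter region, at up to 9.62 (Adgre1), 12.2 (S100a8) and 15 (Kdr) scaled tags, and the 5 lymphocyte markers had none. Stellate cell and cholangiocyte markers had 3 of 5 genes each with a promoter region. Among these, Reln (stellate) held 31 to 147 and Sox9 (cholangiocyte) 46.3 to 146, each summed over 4 regions, and the others up to 35.6 (Col1a1). In bulk nuclei, fewer nuclei with an open promoter and less opening per nucleus cannot be told apart.

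Of the 85 genes, 18 had 1 region, 35 had 2, 24 had 3 and 8 had 4 or 5, and 144 regions overlapped another member region, so neighbouring regions share reads. There were 79 regions within 150 bp of the start site (the core), 93 farther downstream inside the transcribed gene and 23 farther upstream. The core regions had a median of 94.5 scaled tags over the 35 libraries, against 36.6 upstream and 18.9 downstream. A peak had been called in all 35 libraries at 78.5% of the core regions, compared with 58.4% of the 13662 core regions of all genes. At the edge of the rule, the last regions inside were Ndufa8 at +989 bp (13.7 scaled tags) and Ndufaf4 at -995 bp (64.6), and the first outside were Cox6a1 at +1172 bp (17.5) and Uqcr11 at +1289 bp (15.8). All 195 members passed the filter on low signal.

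The sequences around 7 start sites are shown for genes with changes described further on, or as their comparison. Each runs from 170 bases before the RefSeq start site to 30 bases from it, on the gene's strand, in build GRCm38.p6, and capitals mark matches to a searched motif on either strand. A changed region need not lie in the printed stretch. The Cox5a region at +508 bp and the Atp5j region at +271 bp lie outside it. The Atp5g1 region at -294 bp meets only its upstream edge. Atp5g1, which encodes the ring-forming c subunit of ATP synthase, lies on the minus strand at chr11:96075602-96075801, and its 4 matches, of which a pair overlaps, are to CCAAT. Ndufb5, an accessory subunit of complex I, lies at chr3:32736893-32737092 on the plus strand with no match.
Atp5g1: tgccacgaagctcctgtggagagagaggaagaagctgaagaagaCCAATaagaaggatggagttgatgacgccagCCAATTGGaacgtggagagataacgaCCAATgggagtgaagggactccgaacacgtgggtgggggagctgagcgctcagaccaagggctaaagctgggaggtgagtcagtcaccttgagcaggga
Ndufb5: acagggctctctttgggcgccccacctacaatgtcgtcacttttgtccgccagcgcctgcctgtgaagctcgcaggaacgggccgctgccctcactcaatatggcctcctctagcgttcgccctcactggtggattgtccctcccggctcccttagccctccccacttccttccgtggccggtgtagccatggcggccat
Atp5j, coupling factor 6 of ATP synthase, lies at chr16:84834947-84835146 on the minus strand, with a YY1 match and an ETS match. Cox5a, a subunit of cytochrome c oxidase, lies at chr9:57521062-57521261 on the plus strand, with 1 GC box. Ndufaf4, an assembly factor of complex I, lies at chr4:24897913-24898112 on the plus strand, with 3 NRF1 matches, of which a pair overlaps, and 2 overlapping GC boxes.
Atp5j: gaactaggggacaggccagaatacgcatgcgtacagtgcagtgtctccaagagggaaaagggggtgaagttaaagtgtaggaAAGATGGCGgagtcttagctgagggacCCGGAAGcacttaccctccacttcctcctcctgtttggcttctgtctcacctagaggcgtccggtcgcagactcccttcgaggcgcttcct
Cox5a: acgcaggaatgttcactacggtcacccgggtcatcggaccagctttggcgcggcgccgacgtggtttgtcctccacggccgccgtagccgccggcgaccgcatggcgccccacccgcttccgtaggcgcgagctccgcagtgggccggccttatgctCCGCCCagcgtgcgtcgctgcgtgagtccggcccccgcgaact
Ndufaf4: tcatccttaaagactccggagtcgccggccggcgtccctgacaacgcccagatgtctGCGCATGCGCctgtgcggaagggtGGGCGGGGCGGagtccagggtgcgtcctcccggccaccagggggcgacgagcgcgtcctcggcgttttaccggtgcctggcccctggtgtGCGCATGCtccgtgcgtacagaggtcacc
Ndufa5 and Ndufs5, both accessory subunits of complex I, lie on the minus strand at chr6:24527661-24527860 (1 GC box) and chr4:123718157-123718356 (no match). The choice of Ndufs5 was made after its values were seen.
Ndufa5: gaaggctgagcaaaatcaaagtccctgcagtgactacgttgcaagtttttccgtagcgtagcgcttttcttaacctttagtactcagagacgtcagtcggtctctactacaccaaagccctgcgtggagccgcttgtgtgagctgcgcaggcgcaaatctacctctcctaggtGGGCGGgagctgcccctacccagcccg
Ndufs5: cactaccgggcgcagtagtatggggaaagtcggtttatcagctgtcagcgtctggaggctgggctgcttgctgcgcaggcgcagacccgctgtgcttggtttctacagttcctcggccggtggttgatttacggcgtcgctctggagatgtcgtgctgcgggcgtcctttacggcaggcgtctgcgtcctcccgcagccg

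RefSeq promoter windows, 250 bases before to 50 after the start, were matched for 72 of the 85 genes and compared with those of 17491 coding genes. These coding genes were not limited to those with an accessible region. Where a gene had more than 1 RefSeq start, members took the start nearest the one the authors used. The coding, ribosomal protein and proteasome sets took the start of lowest coordinate, so the windows were not chosen alike. A ratio of observed to expected CpG of 0.6 or more was found in 84.7% of member promoters and in 47.6% of all. It was found in 79.5% of the promoters of ribosomal protein genes and 69.7% of those of proteasome genes. The NRF1 motif GCGCATGC was present in 16.7% of member promoters (12 of 72) against 3.56% of all. It stood in 5.13% of ribosomal protein and 6.06% of proteasome promoters. The YY1 motif AAGATGGCG stood in 11.1% against 1.93%, with 5.13% in ribosomal protein and 6.06% in proteasome promoters. The ETS motif CCGGAAG stood in 25% against 11.8%, with 34.6% in ribosomal protein and 30.3% in proteasome promoters. The shares with a CCAAT box (44.4% against 39%) and a GC box, GGGCGG (43.1% against 45.9%), lay close to those of all genes. TGACGTCA, the cAMP response element, was found in 5.56% (4 of 72) against 2.22%, with 6.41% in ribosomal protein and 0 in proteasome promoters. TATAAA was found in 6.94% against 13.3%, with 11.5% and 12.1% in those sets. Motifs were searched on both strands, and a match is a description of letters, not of a bound site.

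Many member genes shared their promoter with a neighbour. A coding gene starting within 1000 bp in the opposite orientation was found for 19 of the 72 matched genes (26.4%), compared with 7.95% of coding genes. The starts of members and of coding genes were chosen in the same unlike ways as for the motif search. Atp5j and Gabpa, which encodes the DNA-binding subunit of GABP, start 148 bp apart, Ndufb5 and Mrpl47, a mitochondrial ribosomal protein gene, 308 bp, Ndufa7 and Rps28 10 bp, and Sdhd and Timm8b 52 bp. ATAC-seq has no strand, so the signal in such a shared region belongs to either gene. The Atp5j region at +271 bp carries the authors' promoter label of a Gabpa transcript, and the Uqcrq regions at -396 and -181 bp lie over the start of Gdf9. The label of the Ndufs5 region refers to a transcript that RefSeq gives to its pseudogene copy, so reads from the copies may not be separable there.

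Promoter accessibility differed widely between genes. Taking for each gene the region nearest its start as its promoter, the median over 85 genes was 89.7 scaled tags, against 61.7 for 13138 coding genes. The highest promoters were Atp5s at 289 (a protein named for ATP synthase coupling factor B, outside the complexes), Atp5j at 260 and Ndufb5 at 242 scaled tags, at or above the 94.1st percentile of coding gene promoters. The lowest were Ndufb3 at 14.7, the testis isoform Cox6b2 at 6.21 and Ndufa1 at 4.05. Of these, Ndufb3 was measured 219 bp inside the gene and Ndufa1 247 bp before its annotated start, so neither region is centred on the start.

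By role, the median promoter level was 124 scaled tags for the 7 core subunits of complex I with a region, 110 for its 8 assembly factors and 74.2 for its 29 accessory subunits. It was 89 for the 4 genes of complex II (succinate dehydrogenase), 73.1 for 8 genes of complex III, 94.6 for 14 genes of complex IV and 112 for 14 genes of complex V. These medians lay within the wide range of single genes, which ran from 4.05 to 242 among the accessory subunits alone. Most restricted isoforms had no accessible promoter region: Cox4i2 of lung, the muscle forms Cox6a2 and Cox8b, the testis forms Cox7b2 and Cox8c, and Ndufa4l2, a gene known for its response to hypoxia, had no region within 1000 bp. The exceptions were Cox6b2, given above, and Cox7a1, known as the heart and muscle isoform, whose promoter held 55.2 ± 5.9 scaled tags (SD, n = 15 PBS libraries) and had a peak in all 35 libraries. A missing region was not limited to restricted isoforms: the subunit genes Ndufb1 and Atp5f1 had none at any distance under these names. An unmatched name and a closed promoter cannot be told apart there.

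Catalytic and structural subunits were compared over the 15 PBS libraries, again as levels. Ndufv1 (NADH-binding subunit) held 161 ± 11.7 and Ndufs1 (iron-sulfur subunit) 86 ± 9.55 scaled tags. In complex II the iron-sulfur subunit Sdhb held 215 ± 21.3, and the flavoprotein Sdha held 30.9 ± 4.22 at a region 255 bp inside the gene. Their mean ± SD ranges lie far apart, although the Sdha region is not centred on the start. In complex III the Rieske protein gene Uqcrfs1 held 175 ± 24.7 and Uqcrc1 (core protein 1) 61.7 ± 8.66. Among complex IV genes, Cox4i1 at 140 ± 16.6 and Cox5a at 128 ± 18.4 differed by less than their spread, and Cox6a1 held 86.1 ± 12.6. The catalytic β subunit gene of ATP synthase, Atp5b, held 145 ± 12.8 and the α subunit gene, Atp5a1, 33.6 ± 4.01.

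**Figure D1:**
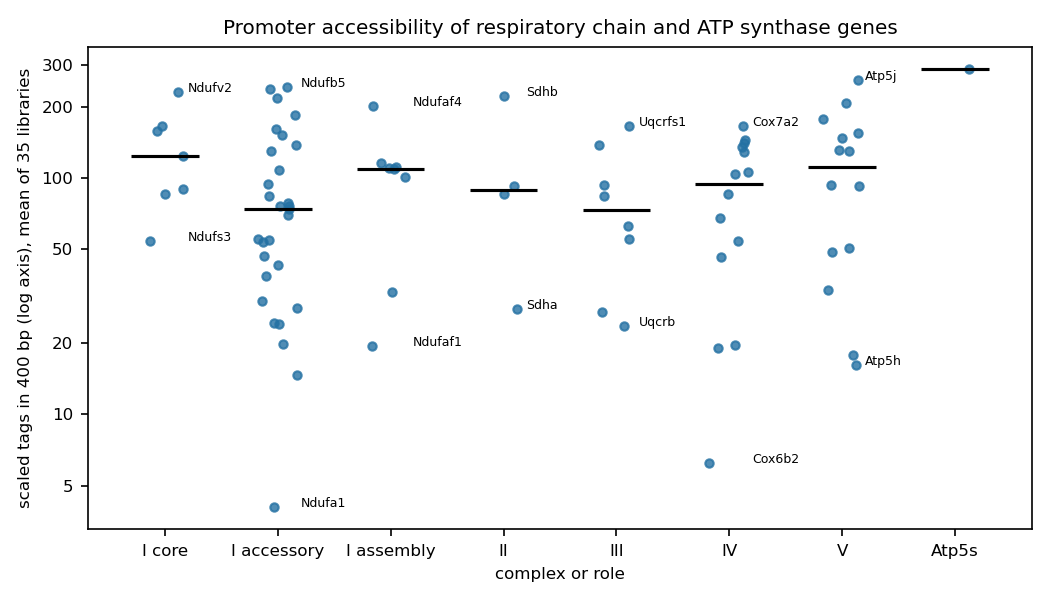
Mean promoter accessibility of the 85 genes over 35 libraries, in scaled tags per 400 bp on a log axis, by complex or role; each point is 1 gene and each bar the median of the role. Levels run from 4.05 (Ndufa1) to 289 (Atp5s), and the medians of the roles lie between 73.1 and 124 apart from the single gene Atp5s.

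In C26 cachexia a small set of member promoters opened further, by 1.19 to 1.56 times, and 3 flanking regions closed. Limma called 11 of 195 regions higher and 3 lower than in C26 PBS at a Benjamini-Hochberg adjusted p of 0.05 over all 177251 regions tested. That is 7.18% of the members, against 14.2% of all regions and 10.4% of the 32756 regions within 1000 bp of any start. By direction, 5.64% of members rose and 1.54% fell, against 7.55% and 2.87% of all promoter regions. The median log2 change was 0.049 for members and 0.054 for all promoter regions. At the region nearest the start, 6 genes rose, none fell, and 80 of 85 stayed within 0.5 log2 units.

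Counts by complex, here and below, are small and were not tested against the shares of all promoter regions given above. The 3 called regions of complex V genes belonged to Atp5g1 and Atp5c1. The Atp5g1 region 294 bp upstream (chr11:96075788-96076188) does not reach the CCAAT matches printed above. The longer window searched for motifs held 5 CCAAT matches, and the one upstream of the printed stretch lies inside this region. There the 4 PBS libraries held 172, 180, 154 and 183 scaled tags and the cachexia libraries 257, 251, 231 and 236. Every cachexia library exceeded every PBS library, and the change was 0.50 ± 0.08 (log2 ± SE, adjusted p = 3.2e-05, limma). The overlapping region at +4 bp rose from 163 ± 7.17 to 198 ± 11 (SD, n = 4 each; adjusted p = 0.017). Atp5c1, the γ subunit that turns inside the catalytic head, rose from 135 ± 18.4 to 164 ± 4.64 (adjusted p = 0.041).

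Of complex I, 5 of 60 regions of accessory subunits rose (8.33%, near the 7.55% of all promoter regions) and none fell, and 0 of 13 regions of core subunits passed. Ndufb5 (chr3:32736767-32737167), which shares its promoter with Mrpl47, held 190, 224, 180 and 194 scaled tags in PBS and 274, 270, 258 and 268 in cachexia. The groups were apart, with a change of 0.44 ± 0.08 (limma, adjusted p = 3.6e-05). Ndufs5 (chr4:123718077-123718477) held 67.5, 61.7, 60.7 and 51 in PBS and 82.8, 71.0, 92.0 and 72.5 in cachexia, again without overlap (0.39 ± 0.12, adjusted p = 0.017). Ndufa7 rose from 41.6 to 59.9, Ndufa13, at -719 bp, from 108 to 143, and Ndufv3, at -116 bp, from 168 ± 6.18 to 199 ± 4.96 scaled tags (adjusted p = 0.023, 0.0097 and 0.049). The Ndufa13 distance is counted from a start 538 bp upstream of the RefSeq one. That region lies past the start of Tssk6, a neighbour in the opposite orientation. The Ndufv3 region ranks eleventh by p and was named after its values were seen. The assembly factor Ndufaf4 fell at +262 bp, from 36.3 to 24.7 with overlapping groups (-0.53 ± 0.18, adjusted p = 0.045).

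Complex III had 2 regions higher and 1 lower of 22, too few to set apart from the promoter shares given for this comparison. The Uqcrq region at -396 bp (chr11:53431027-53431427), over the start of Gdf9, held 244, 263, 233 and 228 scaled tags in PBS and 315, 321, 307 and 305 in cachexia (0.37 ± 0.08, adjusted p = 0.0017, limma), and the region at -181 bp overlaps it and moved alike (0.31 ± 0.09, adjusted p = 0.0092). Uqcrc2, core protein 2, fell at -304 bp between low values, 12.3 and 6.92 (adjusted p = 0.047). In complex IV, Cox7b rose from 12.5 to 19.8 with overlapping groups (0.64 ± 0.22, adjusted p = 0.042), and Cox5a fell at +508 bp (chr9:57521540-57521940), inside the gene. That region held 49.3, 61.1, 36.9 and 72.4 in PBS and 46.5, 30.0, 30.3 and 31.4 in cachexia (-0.63 ± 0.19, adjusted p = 0.016), so that cachexia replicate 1 lay within the PBS range. The core Cox5a region at -11 bp did not pass, at 115 ± 11.1 and 135 ± 12.5. No region of the 6 of complex II passed.

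None of the 11 catalytic or structural genes listed above passed at the region nearest its start, the lowest adjusted p being 0.12 for Cox4i1 and Cox5a. The split of 11 higher and 3 lower depended on scaling: it was 7 and 5 with cyclic loess, 6 and 6 with TMM on promoter regions, and 4 and 0 with library totals. Atp5g1 at -294 bp and Ndufb5 were the only members called under every alternative tried. The number called was 7 without PBS replicate 3, 8 without PBS replicate 4, 9 without cachexia replicate 3 or 4, and at most 11 with any library left out. Of the 13 regions named by rule, Atp5g1 -294, Ndufb5 and Uqcrq -396 bp kept their call whichever of the 8 libraries was left out, and the other 10 lost it at least once, at adjusted p of up to 0.21. Ndufs5 lost it without cachexia replicate 3 (adjusted p = 0.091) or PBS replicate 4 (0.09). Cox5a +508 bp lost it without cachexia replicate 2 (0.055), cachexia replicate 3 (0.057), PBS replicate 2 (0.059) or PBS replicate 4 (0.1), and Uqcrq -181 bp without PBS replicate 3 (0.062). Atp5g1 +4 bp lost it without cachexia replicate 2 (0.066) or PBS replicate 3 (0.06), and Ndufa13 without cachexia replicate 4 (0.052) or PBS replicate 3 (0.058). Ndufa7 lost it without cachexia replicate 1 or PBS replicates 3 or 4, and Atp5c1, Cox7b, Ndufaf4 +262 and Uqcrc2 -304 bp with 5 or 6 of the 8 libraries left out in turn.

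**Figure D2:**
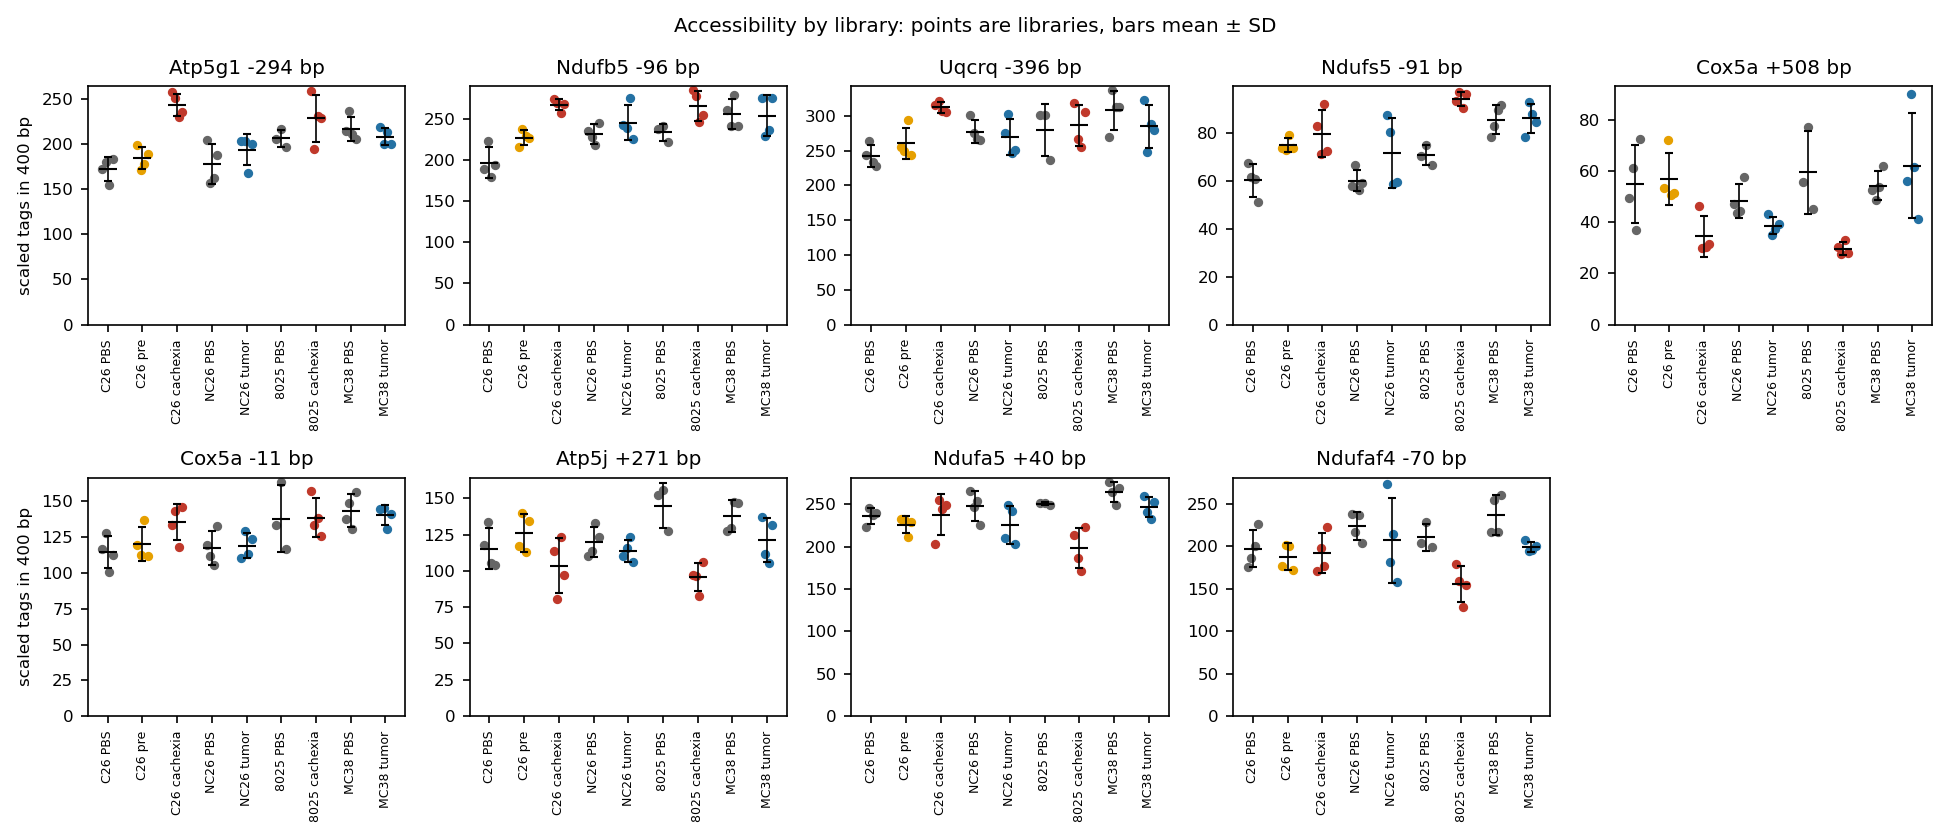
Scaled tags per 400 bp in every library (points; bars, mean ± SD) at 9 member regions, for the 9 groups with n = 4, or 3 for 8025 PBS. C26 cachexia libraries at Atp5g1 -294 bp (231 to 257) lie above all C26 PBS libraries (154 to 183), and 8025 cachexia libraries at Cox5a +508 bp (27.5 to 32.9) lie under all 8025 PBS libraries (45.4 to 77.2).

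Before weight loss no member region passed the test against PBS. Limma called 0 of 195 regions, against 1.31% of all regions and 0.632% of promoter regions, with 8 members at an unadjusted p under 0.05, and edgeR and DESeq2 also called 0. The median log2 change was -0.003. Among the 4 lowest p were Ndufb5 at 227 against 197 scaled tags (0.21, adjusted p = 0.18) and Ndufs5 at 74.9 against 60.2 (0.32, adjusted p = 0.2). At Ndufs5 the pre-cachexia libraries, 73.8, 73.0, 79.2 and 73.7, all lay above the PBS libraries. The other pair were flanks, Cox7c at +435 bp (-0.69, adjusted p = 0.17) and Cox6a1 at +225 bp (-0.53, adjusted p = 0.28).

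Cachexia was also set against pre-cachexia directly, which uses the same cachexia libraries as the PBS comparison. Limma called 4 regions higher and 1 lower, 2.56% of members against 5.42% of all regions and 2.6% of promoter regions. Atp5g1 at -294 bp rose from 199, 171, 178 and 189 scaled tags before weight loss to 257, 251, 231 and 236 (0.40 ± 0.08, adjusted p = 0.002), without overlap. Its region at +4 bp rose from 161 to 198 (adjusted p = 0.023). Ndufv3 rose at -116 bp (158 to 199, adjusted p = 0.013) and at -5 bp (167 to 208, adjusted p = 0.022). Cox5a at +508 bp fell from 56.9 ± 10.2 to 34.6 ± 7.97 (adjusted p = 0.015). The split of 4 and 1 became 1 and 4 with cyclic loess, 3 and 2 with TMM on promoter regions and 0 and 1 with library totals. The number called was 1 without pre-cachexia replicate 2, 2 without cachexia replicate 4, 3 without cachexia replicate 2 or pre-cachexia replicate 4, and 8 without pre-cachexia replicate 3. Only Atp5g1 -294 bp stayed called whichever library was left out, with adjusted p of at most 0.018.

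In 8025 cachexia the called members went mostly the other way: 15 regions of 10 genes fell and 1 rose. That is 8.21% of members, against 12.3% of all regions and 6.97% of promoter regions, among which 3.03% rose and 3.94% fell. The median log2 change was -0.107 for members and -0.03 for promoter regions. At the region nearest the start, 4 genes fell, 1 rose and 84 of 85 stayed within 0.5 log2 units.

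Of 40 complex V regions 3 fell and none rose. The counts by complex in this comparison, too, were not tested against the shares of all promoter regions given above. Atp5j at +271 bp (chr16:84834505-84834905), on the side away from Gabpa's start but under its promoter label, held 152, 155 and 127 scaled tags in PBS and 97.4, 96.2, 82.7 and 106 in cachexia. All 4 cachexia libraries were lower than all 3 PBS libraries (-0.60 ± 0.12, adjusted p = 0.00058, limma), while the printed Atp5j start region was among the highest promoters of the list. A second region assigned to Atp5j, at -693 bp, fell from 68.5 to 49.8 (adjusted p = 0.036). Its distance is counted from a start upstream of the RefSeq one, and the region lies past the start of Gabpa, on Gabpa's side. Atp5e, the ε subunit, fell at +298 bp from 29.9 to 17.7 (adjusted p = 0.015). Atp5s, outside the complexes, fell at +76 bp from 311 ± 12 to 267 ± 20.3 (-0.22, adjusted p = 0.047).

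Complex I had 5 accessory regions of 60 and 2 assembly factor regions of 18 lower. Ndufa5 at +40 bp (chr6:24527450-24527850) held 252, 252 and 249 scaled tags in PBS and 213, 187, 171 and 223 in cachexia (-0.34 ± 0.09, adjusted p = 0.0045, limma). The PBS libraries were nearly equal and lay above all cachexia libraries. Ndufa5 also fell at +982 bp, from 8.21 to 3.32 with overlapping groups (adjusted p = 0.013). Ndufaf4, whose start holds 3 NRF1 matches, fell at -70 bp (chr4:24897813-24898213) from 203, 228 and 199 to 179, 159, 128 and 155 (-0.44 ± 0.12, adjusted p = 0.01), and at +262 bp from 40.3 to 22.8 (-0.80 ± 0.2, adjusted p = 0.0044). Both Ndufaf4 regions were apart between the groups. Ndufb2 fell from 221 to 169 at -49 bp (adjusted p = 0.0073) and from 38.3 to 26.7 at +260 bp (adjusted p = 0.047), and Ndufb7 at +225 bp from 25.4 to 15.8 (adjusted p = 0.041).

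In complexes III and IV the regions that fell were all inside genes. Uqcrc2 fell at +273 bp, from 41.5, 36.7 and 32.9 scaled tags to 28, 20, 18 and 21.6 (-0.74 ± 0.17, adjusted p = 0.0025, limma), and at the overlapping +443 bp region (adjusted p = 0.02). Cox5a at +508 bp fell from 55.8, 77.2 and 45.4 to 30.4, 27.5, 32.9 and 28 (-0.95 ± 0.2, adjusted p = 0.00093), with no overlap. The Cox5a core at -11 bp held 138 ± 23.6 and 139 ± 13.6 (log2 change 0.01, adjusted p = 0.96). Cox7a2l, a factor that joins complexes III and IV, fell at +287 bp from 22.4 to 14 (adjusted p = 0.045). The region that rose was Ndufs5 at -91 bp, from 70.5, 75.1 and 66.5 to 93.3, 96.9, 90.3 and 96.3 (0.41 ± 0.13, adjusted p = 0.025), a clear separation. Atp5j -693, Ndufb7, Cox7a2l, Atp5s and Ndufb2 +260 ranked past the tenth lower region and were named after their values were seen.

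No catalytic or structural gene of the earlier list passed at the region nearest its start, the lowest adjusted p being 0.067 for Sdha (-0.53). The split of 1 higher and 15 lower was 2 and 11 with cyclic loess, 1 and 10 with TMM on promoter regions and 0 and 5 with library totals. The number called was 9 without cachexia replicate 3, PBS replicate 1 or PBS replicate 2, 8 without PBS replicate 4, and at most 17 otherwise. Ndufs5 lost its call without cachexia replicate 2 (adjusted p = 0.057), cachexia replicate 4 (0.053), PBS replicate 1 (0.071) or PBS replicate 4 (0.1), Ndufaf4 -70 bp without cachexia replicate 3 (0.06) or PBS replicate 2 (0.077), and Atp5e without PBS replicate 2 (0.16). Uqcrc2 +443 bp lost it for 4 of the 7 libraries and Ndufa5 +982 bp for 2. The calls at Atp5j +271, Cox5a +508, Uqcrc2 +273 and Ndufaf4 +262 bp held under every alternative tried.

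Markers of other liver cells moved in this comparison, and their part in the result was not tested. The summed promoter signal of 3 of 5 stellate markers was 125 to 154 scaled tags in 8025 PBS and 75.9 to 106 in cachexia. That of 3 of 5 cholangiocyte markers was 115 to 139 and 161 to 188. Of 7 stellate regions 3 were called lower and 1 higher, and of 9 cholangiocyte regions 2 were called higher. Reln and Sox9 made the largest part of these sums, with medians of 75.6 and 86 over all libraries. In the C26 cohort the stellate sum was 96 to 143 in PBS and 84.8 to 112 in cachexia, and the cholangiocyte sum 77.1 to 118 and 119 to 147. The sum of 5 of 6 hepatocyte markers was 661 to 772 in C26 PBS and 760 to 859 in cachexia. There 2 of 8 hepatocyte regions were called higher. In 8025 the hepatocyte sum was 846 to 912 in PBS and 776 to 874 in cachexia, with no region called. The neutrophil marker S100a8 held 1.41 to 4.7 in 8025 PBS and 6.11 to 9.71 in cachexia.

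Changes were next described by position in the promoter. In C26 cachexia 7 of 79 core regions rose and none fell, and 0 of 93 downstream regions rose and 2 fell, with median log2 changes of 0.14 and -0.087. That is 8.86% of core regions higher against 10.6% over all genes, and 2.15% of downstream regions lower against 3.92%, and the medians over all genes were 0.101 and -0.032. In 8025 cachexia 10 of 93 downstream regions fell (10.8%, against 4.84% of downstream promoter regions of all genes) and none rose, with a median of -0.261 against -0.088 for all genes. In the core 4 of 79 fell (5.06%, against 3.11% over all genes) and 1 rose, with a median of -0.012 against -0.001.

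**Figure D3:**
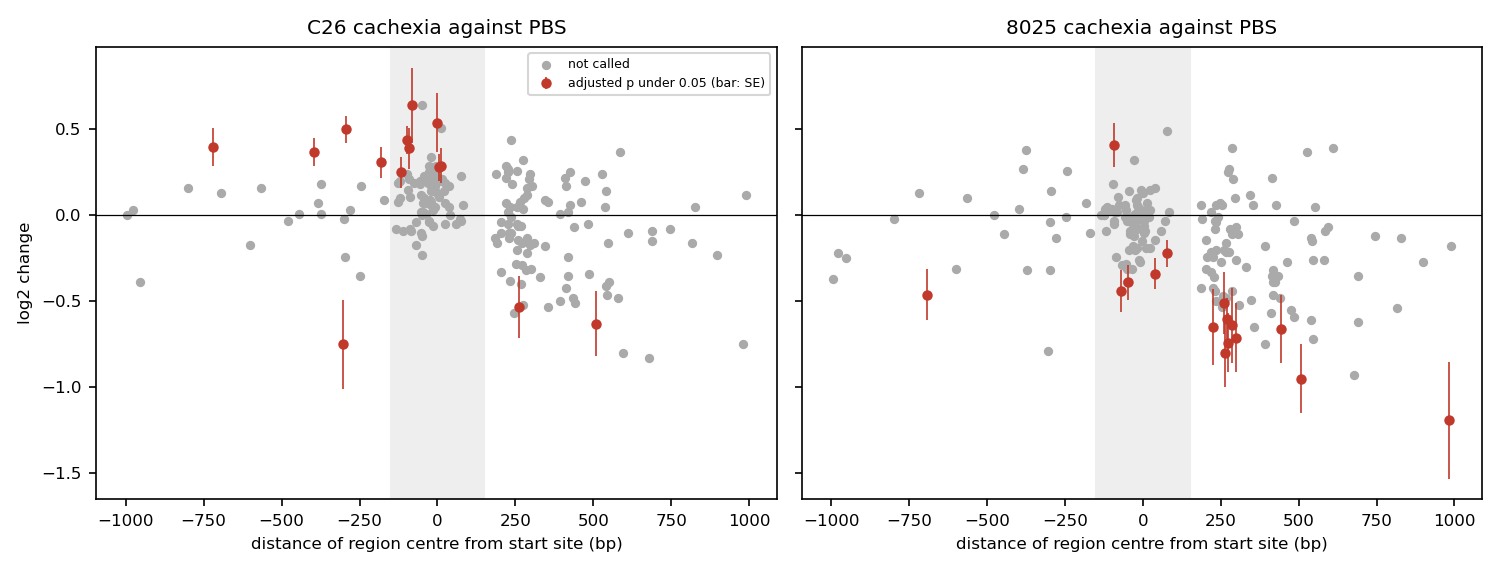
Log2 change in C26 (left) and 8025 cachexia (right) against PBS for 195 member regions by distance of the region centre from the start site in bp; red points passed the test, with bars for SE, and the shaded band is the 150 bp core. Called regions of C26 cachexia are mostly higher and at or upstream of the start, and 10 of the 16 called regions of 8025 cachexia are lower and downstream of the core.

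A ratio of the members' downstream signal to their core signal was computed in each library, a measure chosen after these changes had been seen. In C26 PBS it was 0.271 to 0.297 and in pre-cachexia 0.272 to 0.282, and in C26 cachexia 0.242 to 0.259. In 8025 it was 0.275 to 0.286 with PBS and 0.231 to 0.254 with cachexia, so the cachexia libraries lay under their PBS libraries in both models. With weight-stable tumors the ranges overlapped those of PBS, 0.258 to 0.288 against 0.269 to 0.302 for NC26 and 0.263 to 0.287 against 0.265 to 0.299 for MC38. Over all promoter regions the ratio also lay lower in cachexia, 0.282 to 0.298 against 0.302 to 0.326 for C26 and 0.281 to 0.299 against 0.304 to 0.314 for 8025, so the shift was not limited to members. With that all-promoter ratio as a covariate, limma called 2 members in C26 cachexia and 18 in 8025 cachexia.

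**Figure D4:**
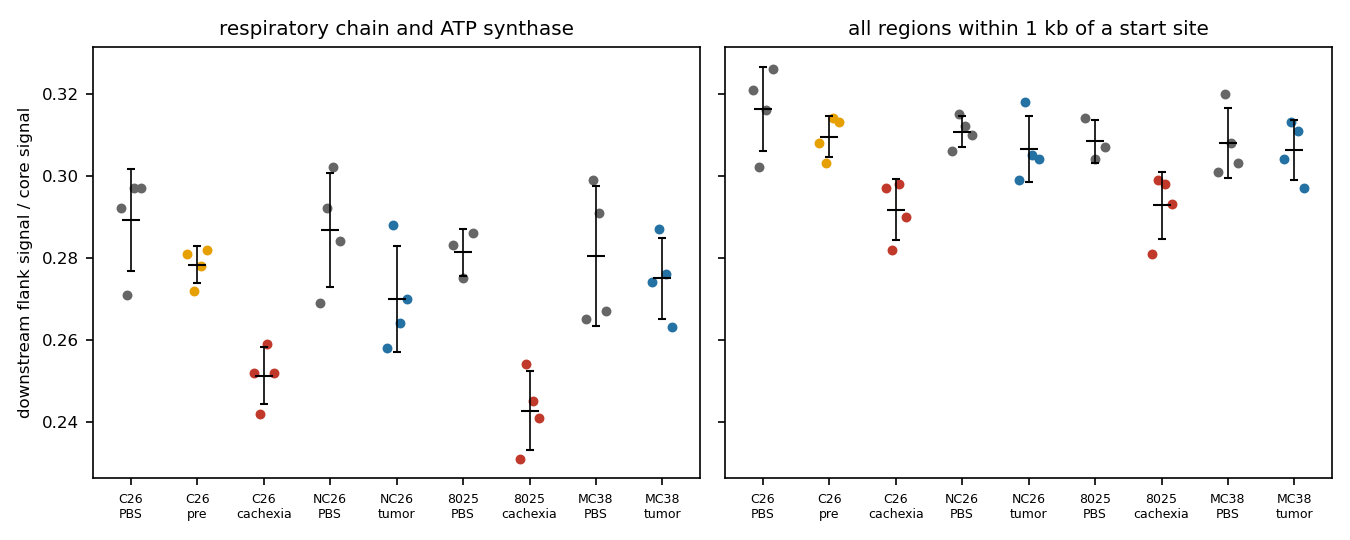
Ratio of downstream signal to core signal in each library (points; bars, mean ± SD) for member regions (left) and all regions within 1 kb of a start (right), on axes that do not start at 0. The C26 and 8025 cachexia libraries lie under their PBS libraries in both panels, at 0.231 to 0.259 for the members.

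The cachexia models, which share no libraries, had 3 called members in common, 21.4% of the 14 in C26 and 18.8% of the 16 in 8025. The matching shares over all promoter regions are not given here, so this overlap cannot be called more or less than that of promoters in general. Ndufs5 at -91 bp was higher in both, Cox5a at +508 bp and Ndufaf4 at +262 bp were lower in both, and no region was called in opposite directions. Across the 195 members the log2 changes had a Pearson correlation of 0.51, and across all 32756 promoter regions 0.58; regions overlap and are not independent, so these describe the tables. The difference between the models was itself tested, and limma called 0 of 195 members (23 at an unadjusted p under 0.05; edgeR and DESeq2 0) against 0.1% of all regions. The lowest p values were at Atp5e +298 bp (0.95 higher on the log2 scale in C26, adjusted p = 0.18), Atp5c1 (0.48, 0.21), Ndufa5 +40 bp (0.35, 0.27) and Atp5j -693 bp (0.59, 0.3). The difference in calls between the models was thus not shown to be a difference in response.

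**Figure D5:**
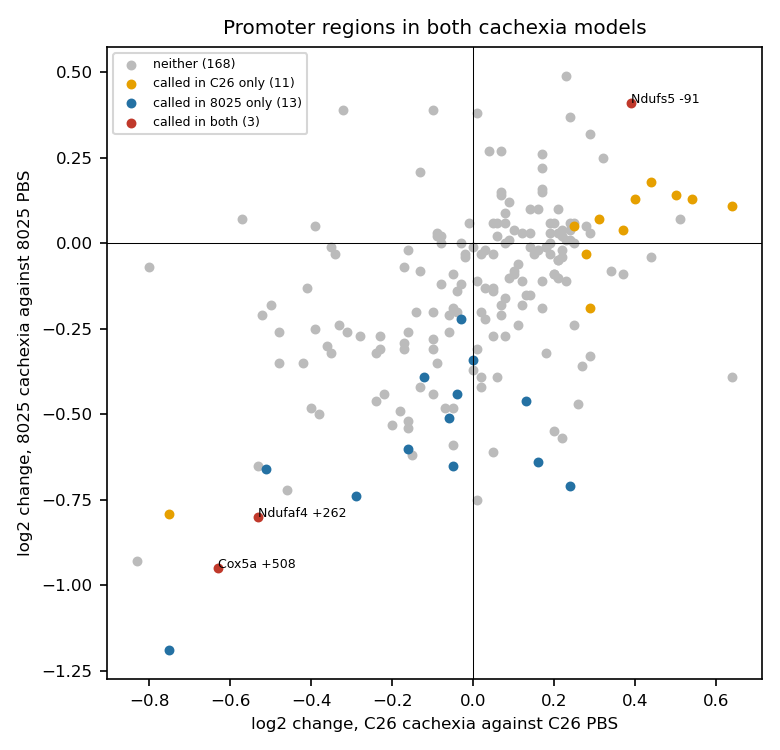
Log2 change of each of 195 member regions in C26 cachexia (x axis) and 8025 cachexia (y axis), coloured by the model in which it was called. Called in both are Ndufs5 -91, higher, and Cox5a +508 and Ndufaf4 +262, lower, and 168 regions were called in neither.

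Tumors that left weight stable changed no member region past the threshold. For NC26 limma called 0 of 195 against 0.177% of all regions, with 14 at an unadjusted p under 0.05, and for MC38 0 against 0.0186%, with 7, while edgeR and DESeq2 called 0 in each. The median log2 change was -0.073 for NC26 and -0.076 for MC38, beside -0.029 and -0.046 over promoter regions. The lowest p in NC26 were at Ndufs1 +354 bp (-0.56, adjusted p = 0.27), Cox6a1 +225 bp (-0.58, 0.31), Ndufb6 (-0.25, 0.36) and Cox6a1 +419 bp (-0.75, 0.37). In MC38 they were Uqcrfs1 at -87 bp, 205 ± 26.6 in PBS and 163 ± 8.7 with tumor without overlap (-0.33 ± 0.09, adjusted p = 0.31), Uqcrc1 +541 bp (-0.48, 0.72), Uqcr11 (-0.32, 0.73) and Ndufc2 +356 bp (-0.55, 0.73). At Ndufs5, called in both cachexia models, NC26 tumor libraries held 87.5, 80.2, 58.8 and 59.4 scaled tags against 58.0, 66.4, 56.3 and 59.3 in PBS, so that 2 libraries stood above all controls and the other two did not.

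The cachexia response was set against that to the weight-stable tumor of the same strain, as a difference of differences. For C26 minus NC26 limma called 0 of 195 members against 2.21% of all regions, with 17 at an unadjusted p under 0.05, and edgeR and DESeq2 called 0. Uqcrq at -396 bp came closest (0.41 ± 0.12, adjusted p = 0.052), then Ndufb5 (0.37, 0.057), Uqcrq +427 bp (0.53, 0.075) and Ndufv2, a core subunit of complex I (0.37, 0.076). With 7 of the 16 libraries left out in turn, 1 or 2 members passed, and 2 did without C26 PBS replicate 2 or NC26 tumor replicate 2. For 8025 minus MC38 limma called 1 member against 1.71% of all regions, Cox5a at +508 bp (-1.09 ± 0.28, 95% interval -1.63 to -0.55, adjusted p = 0.026). MC38 tumor libraries held 56.0, 90.1, 61.4 and 41.3 scaled tags there and MC38 PBS libraries 52.4, 48.8, 53.7 and 62.2, so the MC38 groups overlapped. The call was lost without any 1 of 6 libraries, at adjusted p = 0.05 without 8025 cachexia replicate 2, 0.053 and 0.15 without 8025 PBS replicates 1 and 2, 0.057 without MC38 PBS replicate 2, and 0.088 and 0.058 without MC38 tumor replicates 2 and 3.

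Among mice without tumors, 8 member regions of 7 genes were lower in BALB/c (NC26 cohort PBS) than in C57BL/6N (MC38 cohort PBS) and none was higher. That is 4.1% of members against 9.08% of all regions and 8.51% of promoter regions, among which 1.61% were higher and 6.89% lower. Ndufs5 at -91 bp held 58.0, 66.4, 56.3 and 59.3 scaled tags in BALB/c and 78.1, 82.8, 89.3 and 91.5 in C57BL/6N (-0.50 ± 0.12, adjusted p = 0.0025, limma). The other PBS cohorts held 60.2 ± 6.83 in BALB/c (C26) and 70.7 ± 4.29 in C57BL/6N (8025), so the C57BL/6N cohorts differed in level from each other as well.

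Also lower in BALB/c were Cox6b1, a subunit of complex IV (54.8 against 81.6 scaled tags, adjusted p = 0.0027), Atp5g3, a second c subunit gene (83.5 and 117, 0.006), Atp5g1 at +4 bp (157 and 195, 0.0087) and -294 bp (178 and 217, 0.019), Cox4i1 (131 ± 7.37 and 161 ± 1.02, 0.028) and Ndufa2 (120 and 146, 0.035), by limma. Ndufs5 and Atp5g1 thus had their lower PBS level in the strain of the C26 cohort. Strain and cohort go together in this comparison and cannot be told apart. The split of 0 higher and 8 lower was 1 and 3 with cyclic loess and 1 and 4 with TMM on promoter regions, and 13 were called without MC38 PBS replicate 1. Ndufs5 and Cox6b1 kept their call whichever library was left out, and 5 regions lost it at least once, at adjusted p of up to 0.22.

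Other genes of mitochondrial energy metabolism were counted in the same fits, where 7.55% of all promoter regions rose and 2.87% fell in C26 cachexia and 3.03% rose and 3.94% fell in 8025 cachexia. Of 45 promoter regions of 15 regulators, 4 rose (8.89%) and none fell in C26 cachexia. Ppargc1a, which encodes PGC-1α, rose from 49.5 ± 8.46 to 88.6 ± 17.1 scaled tags at -24 bp (0.82 ± 0.15, adjusted p = 5.7e-05, limma), with Yy1 at -438 bp (0.31, adjusted p = 0.0033), Sp1 at +419 bp (0.28) and Esrra, the ERRα gene, at -188 bp (0.25, adjusted p = 0.021). Nrf1, Gabpa and Tfam did not pass. In 8025 cachexia none rose and 2 fell, both of the PGC-1β gene Ppargc1b (-0.46, adjusted p = 0.011, and -0.71, 0.026), and Ppargc1a had a change of 0.00. The difference between the models at Ppargc1a was 0.83 ± 0.21 with an adjusted p of 0.11.

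Of 75 regions of 36 further assembly factors, 3 rose (4%) and 2 fell in C26 cachexia and 0 rose and 4 fell (5.33%) in 8025 cachexia, against the promoter shares of 7.55% higher and 3.94% lower. Bcs1l, which inserts the Rieske protein into complex III, rose from 141 to 220 scaled tags in C26 cachexia (0.64, adjusted p = 1.9e-05) and already before weight loss (0.42, adjusted p = 0.027), and its response differed from that to NC26 tumors (0.55, adjusted p = 0.035). Of 50 regions of 17 genes of the citric acid cycle and pyruvate dehydrogenase, 4 rose (8%) and 1 fell in C26 and 0 rose and 5 fell (10%) in 8025. Ogdh rose in C26 (0.81, adjusted p = 0.0015), and Pdha1 at +843 bp fell in C26 (-1.25, adjusted p = 0.00074) and in 8025 (-1.63, adjusted p = 8.6e-05). Of 44 regions of 16 carrier genes 2 rose in C26 (4.55%), of Vdac3 and Coq7, and 2 fell in 8025 (4.55%), of Slc25a3 and Vdac1.

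Outside oxidative phosphorylation, 8 of 67 regions of mitochondrial ribosomal protein genes rose (11.9%, against 7.55% of all promoter regions) and 1 fell in C26 cachexia, and 1 rose and 2 fell in 8025 (4.48% called, against 6.97%). For cytosolic ribosomal protein genes 16 of 221 rose (7.24%) and 1 fell in C26, and 1 rose and 3 fell in 8025 (1.81% called), and for proteasome genes 3 of 78 rose in C26 (3.85%) and 2 in 8025 (2.56%). Median log2 changes in C26 were 0.026, 0.064 and 0.081 in that order, beside 0.049 for the respiratory chain and ATP synthase, and in 8025 they were 0.003, -0.001 and 0.009 beside -0.107. For scale, the acute-phase gene Lcn2 rose at -64 bp from 39.7 to 197 scaled tags in C26 cachexia and from 34.5 to 186 in 8025 cachexia, log2 changes of 2.29 and 2.42. Median log2 changes of the members' promoters with and without a motif, described with no test, were 0.10 and 0.14 for NRF1 (12 and 60 genes) in C26 cachexia and 0.00 and -0.01 in 8025 cachexia. The widest gaps were for motifs with few genes: TGACGTCA, with 4 genes, 0.01 and 0.14 in C26 cachexia and -0.10 and -0.01 in 8025 cachexia, and TATAAA, with 5 genes, 0.02 and 0.14 in C26 cachexia.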

How the data were processed

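ATAC-seq was measured in 35 libraries of INTACT-purified hepatocyte nuclei, 25000 nuclei and 12 PCR cycles each, per the labels' protocols. Per the submitters' processing notes, reads were handled with BWA 0.7.5a-r405, SAMtools and HOMER on mm10. The deposited signal counts tags in 400 bp regions, and the authors had normalized each library to the same total of 10 M, as the file headers state. Read ends recovered from it came out whole (within 0.05) for 100% of values.

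Because the values are normalized and not counts, limma-trend 3.58.1 (R 4.3.3, robust) on log2(value/TMM factor + 1) replaced the count test that had been planned, in 1 fit of 9 groups with a covariate for the 2 separate runs of numbers into which the labels' library names fall. What these runs stand for is not stated there. All C26 libraries lie in the lower run and all 8025 libraries in the higher, and NC26 and MC38 groups have 2 libraries in each. edgeR 4.0.16 (filterByExpr with a minimum count of 10, its TMM, and quasi-likelihood) and DESeq2 1.42.0 on recovered reads were alternatives. The filter kept 177251 regions and removed 653. Adjusted p-values are Benjamini-Hochberg over all of these, threshold 0.05. Fold changes understate low regions, 1 read end being worth 0.21 to 1.4 scaled tags. Samples were grouped by the labels' treatment, and p-values measure the spread between animals.

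Members and lists were chosen with earlier results of these data known. Named regions were up to 10 called members per direction by lowest adjusted p, the 4 lowest p where fewer than 4 were called, fixed catalytic subunits and restricted isoforms, and the 3 highest and 3 lowest promoters. Replicate numbers did not pair libraries: of 23 same-numbered pairs, none had deviations correlated above 0.1. No genome was used, and sequences are from RefSeq tables. One member is not reported here.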

Additional observations from a re-analysis of the deposited data

Results flagged for a closer look

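Dixon's test for a single distant library was made in 112 groups of 4 and singled out 5, where chance gives about 1 in 20. At Cox5a +508 bp, C26 cachexia replicate 1 held 46.5 scaled tags, the other three 30 to 31.4, and pre-cachexia replicate 2 held 72.1, the others 50.7 to 53.4. At Ndufs5 -91 bp, pre-cachexia replicate 3 held 79.2 and the others 73 to 73.8. At Atp5g1 -294 bp, NC26 tumor replicate 3 held 168 and the others 200 to 203. The median log2 value over members was 5.23 in C26 PBS replicate 1 and 5.11 to 5.13 in the others. Of 585 tests of a difference between the effects of tumors, 1 passed: the change at Cox5a +508 bp in 8025 cachexia minus that with MC38 tumors was -1.09 (log2, limma, adjusted p = 0.026).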

How the results depend on the processing

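Of 271 recomputed counts of called members 223 stayed within 1.5 times the value in the report. Among these are the counts for pre-cachexia, NC26, MC38 and C26 minus 8025, which were 0 in every setting. Of 271 medians 258 moved by less than the spread between replicates. That spread was 0.059 (log2), larger than some of the medians, so a median could change sign and still be counted here. In C26 cachexia the median ran from -0.005 to 0.122, and before weight loss from -0.037 to 0.082. Of 1480 recomputed values for 61 named regions, 160 lost their call, 10 gained one and 0 reversed. With library totals, members called were 4 in C26 cachexia, 1 against pre-cachexia, 5 in 8025 cachexia and 0 in 8025 minus MC38, and medians were 0.082 before weight loss, 0.045 for NC26, 0.029 for C26 minus NC26 and -0.243 between strains. With cyclic loess, the strains gave 4 (median -0.055) and C26 minus 8025 a median of 0.096. With TMM on promoter regions, chosen after seeing the data, the strains gave 5 (median -0.03), C26 minus NC26 a median of 0.032 and C26 minus 8025 of 0.094. With promoter share as covariate, 2 were called in C26 cachexia against pre-cachexia, 10 in 8025 cachexia and 5 between strains, and the median of C26 minus 8025 was 0.102. With the downstream ratio as covariate, also chosen after seeing the data, 2 were called in C26 cachexia and 1 against pre-cachexia. Array weights gave 10 against pre-cachexia and 1 in C26 minus NC26, a pseudocount of 5 gave 1 in C26 minus NC26, and a fit of only the cohorts compared gave 8 and 1. With 1 region per gene, 6 were called in C26 cachexia (median 0.122), 2 against pre-cachexia, 5 in 8025 cachexia (median -0.016) and 0 in 8025 minus MC38 (median 0.042), and with regions within 500 bp the last was also 0. Fewer regions are counted in these settings, and the cause of the moved medians and of the other shifts was not tested.

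Leaving out 1 library gave 7 to 11 called members in C26 cachexia, 1 to 8 against pre-cachexia, 8 to 17 in 8025 cachexia, 0 to 2 in C26 minus NC26, 0 to 1 in 8025 minus MC38 and 6 to 13 between strains. DESeq2 called 15, 7, 21 and 11 in C26 cachexia, against pre-cachexia, in 8025 cachexia and between strains, and edgeR 14, 5, 16 and 9. With replicate number as a block, which the labels do not tie to shared animals or days, the same counts were 12, 5, 13 and 10, and no count moved by over 1.5 times. Correlations between same-numbered libraries ran from -0.155 to 0.077 in 23 pairs. The median coefficient of variation between PBS libraries was 18.8% downstream and 10.1% at the region nearest the start.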

Other observations

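At Ndufs5 -91 bp, called in both cachexia models, the 8025 PBS libraries held 66.5 to 75.1 scaled tags and the MC38 PBS libraries, also C57BL/6N, 78.1 to 91.5. MC38 tumor libraries held 78.5 to 93.0 there, and 8025 cachexia libraries 90.3 to 96.9. The BALB/c PBS cohorts held 51 to 67.5 (C26) and 56.3 to 66.4 (NC26). These are values only, and the difference between the C57BL/6N control cohorts was not tested.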
